A study of Mus musculus with 3 samples.

Results

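The genes described here are 11 antioxidant and NRF2-response genes of the mouse liver: Gclc, Gclm, Txnrd1, Nqo1, Hmox1, Gsta1, Gsta2, Sod1, Sod2, Cat and Gpx1, of 10526 named genes in the deposited ratios. They were chosen by name through 16 Affymetrix probe sets, each a group of short oligonucleotides that reads 1 transcript or a few like ones. Of these, 15 were among the 19824 probe sets with a deposited log2 ratio, and the remaining one, a second probe set for Txnrd1, had signal levels only. The 3 arrays measured livers of mice of the inbred strain BALB/c, all female. Young control mice were 10 weeks old on normal food, old control mice were 50 weeks old on normal food, and old Chlorella mice were 50 weeks old on food with 2.0% powder of the green alga Chlorella. RNA of 6 mice was pooled for each array, so each group is 1 array, the variation between mice is not seen, and no difference below has a replicate check or a test. The title of the series names ovalbumin-sensitized mice, whereas the sample labels give no sensitization.

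NRF2, encoded by Nfe2l2, is a transcription factor that KEAP1 holds for degradation until oxidants or electrophiles modify KEAP1. It then binds antioxidant response elements with small MAF partners and raises genes for glutathione synthesis, thioredoxin reduction, quinone reduction and conjugation. The superoxide dismutases, catalase and glutathione peroxidase remove superoxide and peroxides directly, and are under wider control than NRF2 alone. In liver these enzymes serve hepatocytes, which meet both food-derived electrophiles and peroxide from fatty acid oxidation.

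The core letters of the antioxidant response element, TGACNNNGC, were searched on both strands of windows running from 250 bases before to 50 bases after annotated transcript starts (RefSeq, GRCm38.p6). The window table held 9 of 11 gene symbols (not Gclc and Hmox1) in 11 windows. A match was found in 3 of these windows, and in 12.4% of all 32851 windows of the same length. The windows of Nqo1, Gsta1, Gsta2, Sod2, Cat and Gpx1 held no match, and letters further from a start were not searched. Sequences upstream are shown for the 3 windows with a match. Of their genes, Gclm and Txnrd1 were lower in the old livers. For Sod1, old control minus young control was -0.06 (log2) on 1451124_at and -0.54 on 1435304_at. Old Chlorella minus young control was 0.04 and 0.485 on the same probe sets. Whether a match goes with a direction was not tested. Capitals mark the match, which lies on the opposite strand in each. It begins 134 bases before the start in Gclm (chr3:122245307-122245486, plus strand), 92 bases before the second of 3 annotated starts in Txnrd1 (chr10:82858956-82859205, plus strand) and 56 bases before the start in Sod1 (chr16:90220512-90220761, plus strand). The Gclm stretch of 180 bases ends where the annotated gene begins, short of the start from which its match is counted, and the other stretches run up to the start. A match is a description of the letters and not a site shown to be bound.
Gclm: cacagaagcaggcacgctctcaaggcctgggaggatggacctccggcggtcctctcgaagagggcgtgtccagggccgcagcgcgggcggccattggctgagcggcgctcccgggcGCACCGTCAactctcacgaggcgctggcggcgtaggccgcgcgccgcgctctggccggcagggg
Txnrd1: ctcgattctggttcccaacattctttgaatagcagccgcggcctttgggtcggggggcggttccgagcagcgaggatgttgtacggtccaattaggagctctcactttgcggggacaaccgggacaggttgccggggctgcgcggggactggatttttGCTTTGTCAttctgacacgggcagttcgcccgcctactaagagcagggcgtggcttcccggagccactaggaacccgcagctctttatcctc
Sod1: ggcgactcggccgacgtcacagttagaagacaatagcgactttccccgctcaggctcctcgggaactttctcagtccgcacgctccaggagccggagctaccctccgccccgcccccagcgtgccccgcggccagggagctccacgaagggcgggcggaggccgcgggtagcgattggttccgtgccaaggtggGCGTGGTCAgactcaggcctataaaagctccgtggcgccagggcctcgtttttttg

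Per the file headers, the deposited ratios are log2 values of an array's signal over the median of all samples for that probe set. A median of these 3 arrays alone would leave 1 ratio at 0, whereas Gclc had 0.753, -0.433 and 0.057. The reference is thus not fully known, but it cancels in the differences between arrays that were taken from the ratios. The deposited log2 signals of the same arrays gave the same differences within 0.001 and are used here to show levels. A signal can be compared between arrays for 1 probe set, not between probe sets. The spread of all probe sets is given by class of mean log2 signal (under 8, then steps to 10, 12, 14 and over 14). It stands beside each difference for scale and is no replicate error. For old control minus young control, the median difference was 0.156 in the class from 12 to 14 and 0.584 in the class of 14 and over, against -0.11 over all 16667 probe sets. Albumin, the main plasma protein made by hepatocytes, lay in that highest class and differed by 0.47. A positive age difference of a strong probe set was therefore common on these arrays.

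Gclc, Gclm and Txnrd1 had a lower signal in the old control than in the young control on each of their probe sets. In the deposited ratios Gclc alone of these was past 2-fold. The genes are grouped here by that shared direction, so their agreement carries no weight. Of all 15 members, 8 were below 0 by age and 7 above, next to 55.8% below 0 among all probe sets with a deposited age difference. Gclc encodes the catalytic subunit of glutamate-cysteine ligase, the rate-limiting enzyme of glutathione synthesis. Its log2 signal was 13.77 in young control, 12.59 in old control and, in old Chlorella, 13.08. Young control was thus the highest and old control the lowest array. The age difference was -1.19 (log2), or 2.28-fold lower in old control, and 2.69% of the 1489 probe sets of its signal class lay lower. Old Chlorella was 1.40-fold higher than old control (0.49) and 1.62-fold lower than young control (-0.70). The diet difference of Gclc exceeded that of 97.4% of its class.

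Gclm encodes the modifier subunit of the same ligase. Its log2 signals were 12.48 (young control), 11.77 (old control) and 12.09 (old Chlorella). The order of the arrays was that of Gclc, with smaller steps: -0.71 by age (1.64-fold), 0.32 by diet (1.25-fold) and -0.39 for old Chlorella against young control. The diet difference exceeded that of 92.9% of its class. Txnrd1 encodes cytosolic thioredoxin reductase, the selenoenzyme that uses NADPH to reduce thioredoxin. On 1421529_a_at the log2 signals were 11.46, 10.73 and 10.82, with both old arrays below young control and close to each other. The differences were -0.73 by age (1.66-fold), 0.096 by diet (-0.03 with equal medians in the signal table) and -0.64 against young control for old Chlorella. The second probe set, 1424486_a_at, had no deposited ratio. Its log2 signals of 9.23, 8.18 and 8.43 gave -1.05 by age (2.07-fold) and 0.25 by diet. The age direction of Gclc, Gclm and 1421529_a_at was the same under all 8 other settings tried. Some of these could not move it: the signal table as deposited, the same with a floor, and a filter on low signals.

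**Figure D1:**
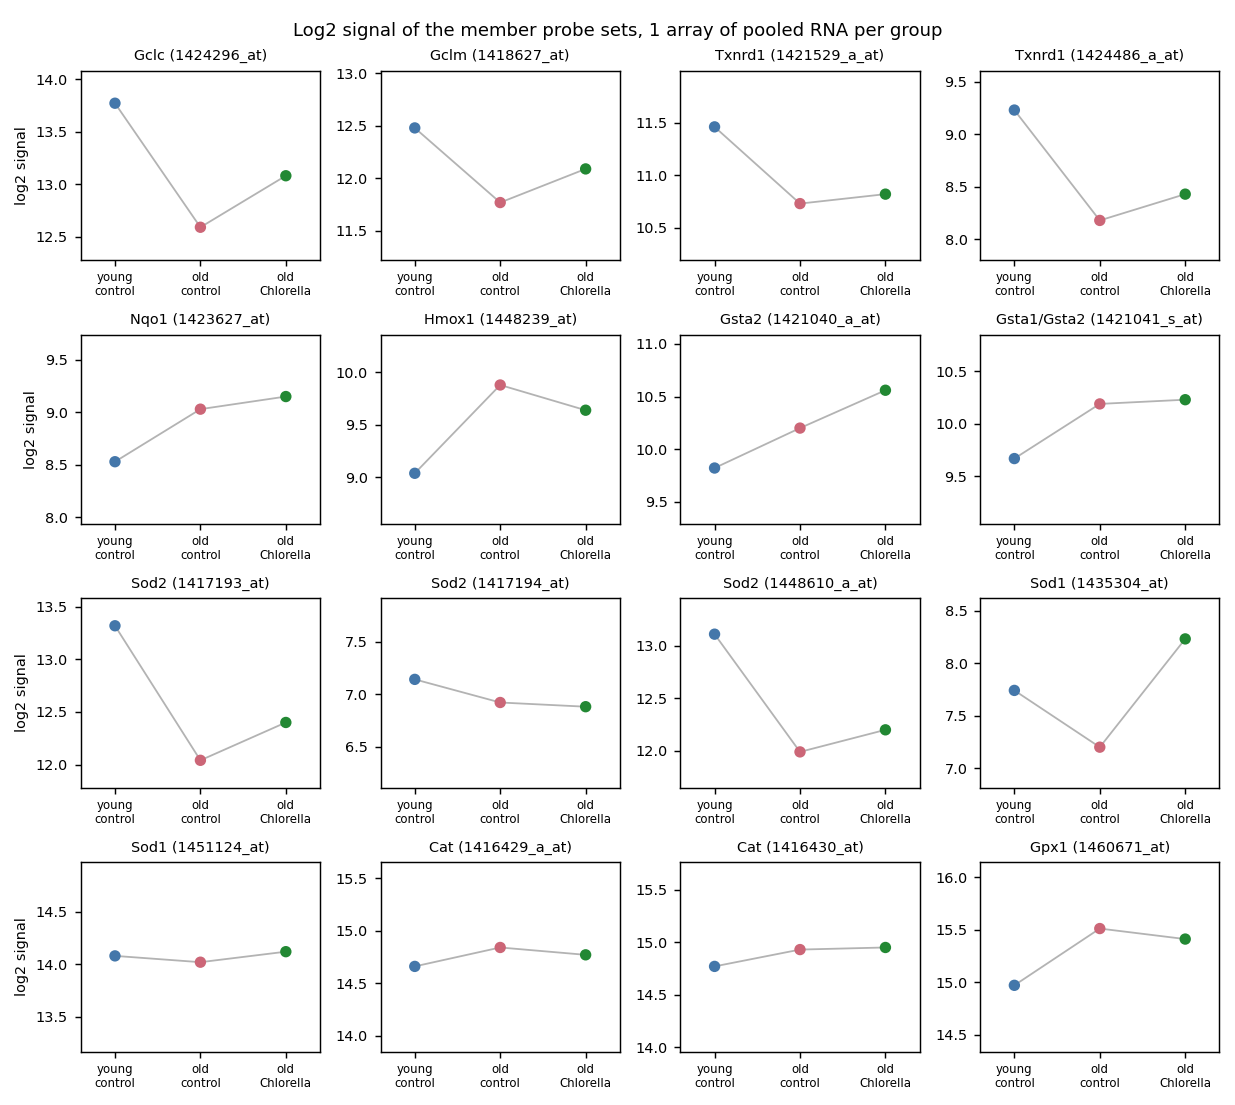
Log2 signal (y axis, 1.8 log2 units in each panel) of the 16 probe sets on the 3 arrays (x axis), 1 point for each array of pooled RNA, joined by a line only to guide the eye. Gclc, Gclm, both Txnrd1 and 2 of 3 Sod2 probe sets were highest in young control and lowest in old control, whereas Nqo1, Hmox1, the Gsta probe sets and Gpx1 were lowest in young control (by age all but Hmox1 are below 0 with the poly-A controls at 0).

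Sod2, the manganese superoxide dismutase of mitochondria, had the largest age difference among the 15 probe sets. On 1417193_at its log2 signals were 13.32 in young control, 12.04 in old control and 12.40 with Chlorella. The age difference was -1.28, or 2.43-fold lower in old control, and 2.08% of the class lay lower. On 1448610_a_at the signals were 13.11, 11.99 and 12.20, and the age difference was -1.12 (2.17-fold), or -0.87 after quantile normalization. Both probe sets put young control highest and old control lowest. Old Chlorella exceeded old control by 0.36 and 0.21 and lay below young control by 1.89-fold and 1.88-fold. The third probe set, 1417194_at, did not share this size: its signals were 7.14, 6.92 and 6.88, with differences of -0.22 by age and -0.04 by diet, the latter above 0 with either set of bacterial controls at 0. The probe sets read 1 gene and are not independent, and the cause of their disagreement was not tested.

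Sod1 is the copper-zinc superoxide dismutase of the cytosol. On 1451124_at its log2 signals were 14.08, 14.02 and 14.12, within 0.1 of each other. The age difference of -0.06 was nevertheless low for the class, where 14% of 573 probe sets lay lower, and its sign turned with array medians at 0. The other Sod1 probe set, 1435304_at, gave 7.74, 7.20 and 8.23, with old Chlorella the highest array. Its diet difference of 1.02 (2.03-fold) was the only one among the members to reach 2-fold, and was 0.895 with equal medians in the signal table. In its class, with signals under 8, 3.75% of 4298 probe sets differed by 2-fold in either direction between the old arrays, the largest share of the 5 classes. The value of 1451124_at, 0.097, was not near it, so the pair of probe sets does not give 1 value for the gene.

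Catalase (Cat), the peroxisomal enzyme that splits hydrogen peroxide, was close to level on the 3 arrays. Its log2 signals were 14.66, 14.84 and 14.77 on 1416429_a_at and 14.77, 14.93 and 14.95 on 1416430_at, from young control to old control to old Chlorella. The age differences of 0.19 and 0.16 turned negative with the hybridization or poly-A controls set to 0 and with equal medians in the signal table. In their class 23.2% and 22.2% of probe sets lay lower, so both lay low among strongly detected transcripts. Gpx1, a cytosolic and mitochondrial selenoenzyme that reduces peroxides with glutathione, had signals of 14.97, 15.51 and 15.41. Both old arrays were above young control, by 0.54 (1.45-fold) in old control and 0.44 (1.35-fold) with Chlorella. With the poly-A controls at 0 these became -0.21 and -0.025. The age difference lay near the middle of its class, where 46.2% of probe sets were lower. By diet Gpx1 differed by -0.10 and the Cat probe sets by -0.08 and 0.025, and Gpx1 was above 0 with either set of bacterial controls at 0. The median diet difference of their class was -0.076.

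The quinone, haem and conjugation genes were higher in the old livers in the deposited ratios, all below 2-fold. Nqo1, a quinone reductase and a common readout of NRF2, had log2 signals of 8.53 in young control, 9.03 in old control and 9.15 with Chlorella. The difference from young control was 0.51 (1.42-fold) in old control and 0.63 (1.54-fold) in old Chlorella, with the age difference at -0.24 once the poly-A controls were set to 0. By diet Nqo1 differed by 0.12, or -0.009 with equal medians in the signal table. Hmox1, the inducible haem oxygenase, had 9.04, 9.88 and 9.64, so old control was the highest array. Its age difference of 0.84 (1.79-fold) was the highest among the members and exceeded 92.1% of its class. It stayed above 0 in all settings that could move it, the lowest being 0.089 with the poly-A controls at 0. Old Chlorella was lower than old control by 1.18-fold (-0.24), which became 0.053 in that same setting.

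Gsta1 and Gsta2 encode alpha-class glutathione transferases, which couple glutathione to electrophiles. The probe set for Gsta2, 1421040_a_at, had log2 signals of 9.82, 10.20 and 10.56, with young control lowest and old Chlorella highest. The steps were 0.37 by age and 0.37 by diet (1.30-fold and 1.29-fold), and old Chlorella was 1.67-fold above young control. The diet difference exceeded 94.6% of its class. The probe set shared by Gsta1, Gsta2 and Gm3776, 1421041_s_at, had 9.67, 10.19 and 10.23, with differences of 0.52 by age and 0.047 by diet (-0.08 with equal medians in the signal table). The age difference became negative with the poly-A controls at 0 on both, and also with the hybridization controls at 0 on 1421040_a_at.

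Counted together, 3 of 15 members (20%) reached 2-fold by age in either direction, next to 18.3% of all 16667 probe sets. This share is near that of all probe sets. At 1.5-fold it was 6 of 15, next to 43.8%. All 3 were lower, Gclc and a pair for Sod2, where 8.8% of all probe sets were lower. No member was 2-fold higher, against 9.55% of all. The median age difference of the members was -0.06 and that of all probe sets -0.11, with 8 members above the latter and 7 below. The count was the same after quantile normalization. The other scalings shift an array as a whole and cannot change it. In size, the median absolute difference was 0.54 for members and 0.51 for all. The members differed among themselves, from -1.28 (Sod2) to 0.84 (Hmox1).

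Between the old arrays 1 of 15 members (6.67%) reached 2-fold, Sod1 on 1435304_at, next to 1.52% of all 16524 probe sets (0.841% higher and 0.678% lower). The same probe set was the only one at 1.5-fold, next to 8.65%. A share from 1 probe set carries little. The median diet difference was 0.097 for the members and 0.003 for all probe sets, and 11 members lay above the latter and 4 below. This count, too, was the same after quantile normalization, and the other scalings cannot change it. The members furthest above 0 after Sod1 were Gclc (0.49), Gsta2 (0.37), Sod2 on 1417193_at (0.36) and Gclm (0.32). Hmox1 (-0.24) and Gpx1 (-0.10) were furthest below. None of the 15 reached 2-fold when old Chlorella was set against young control, next to 15.2% of all 16572 probe sets (8.32% higher and 6.87% lower). At 1.5-fold it was 7 of 15, next to 40.7%, with values from -0.92 for Sod2 to 0.74 for Gsta2. The age and the diet difference use the same old control array, so the 2 differences are not independent.

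**Figure D2:**
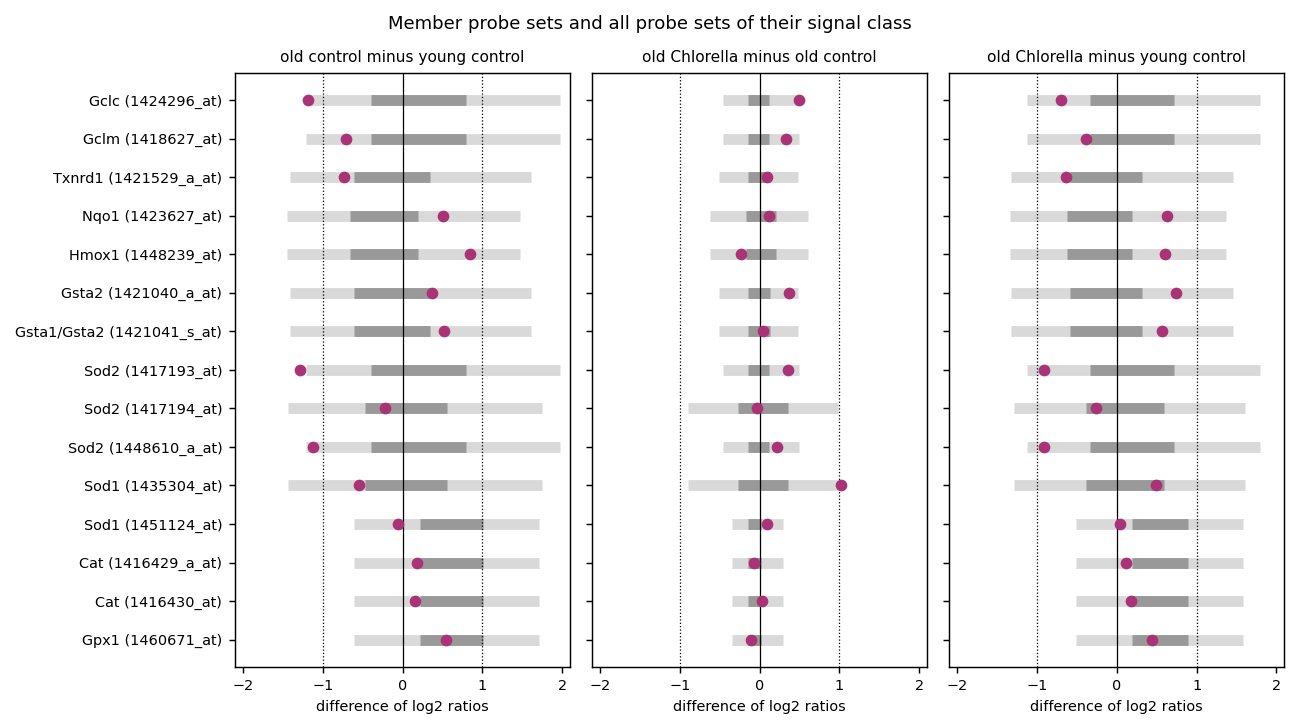
Difference of log2 ratios (x axis) of the 15 member probe sets (y axis, points) in the 3 comparisons, over bars for all probe sets of the same signal class (dark, middle 50%; light, middle 95%); dotted lines mark 2-fold. By age Gclc and 2 Sod2 probe sets lie at or near the low end of their class, and by diet Gclc and Sod1 on 1435304_at lie at the high end.

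The bacterial RNAs added as hybridization and poly-A controls were higher on the old control than on the young control array, by medians of 0.46 and 0.75. For the scalings, the median of each set of controls was put at 0 on each array. This moved the median of all probe sets from -0.11 to -0.52 and -0.86, and the members with it. The shift comes from each array's own control median, not from the median of the differences, so the first move is not exactly 0.46. Of all probe sets past 2-fold, the share that was higher went from 52.0% to 15.5% and 4.78%. By diet that share went from 55.4% to 80.8% and 90.6%, with medians of 0.17 and 0.293, and in old Chlorella against young control from 54.7% to 26.8% and 11.1%, with medians of -0.32 and -0.55. Gclc then differed by age by -1.59 and -1.94, and Sod2 on 1417193_at by -1.68 and -2.03. Both moved with the median of all probe sets, by the same amount. Gclc, Gclm, Txnrd1, the Sod2 probe sets and Sod1 on 1435304_at were below 0 under each of 5 scalings. In contrast, Nqo1, both Gsta probe sets, both Cat probe sets and Gpx1 fell below 0 with the poly-A controls at 0.

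**Figure D3:**
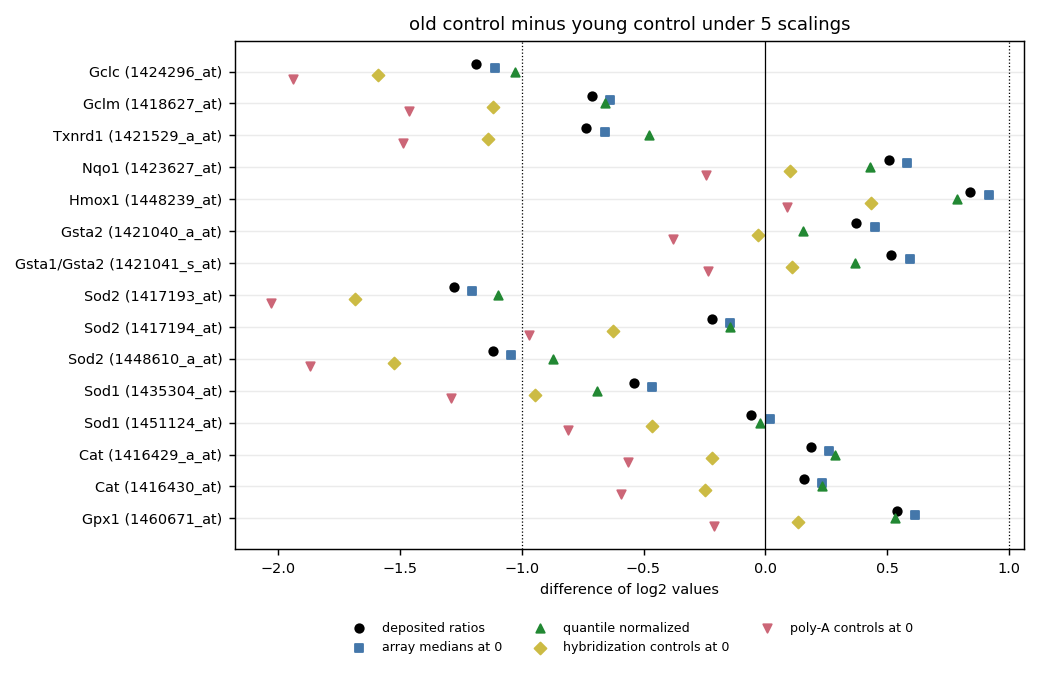
Difference of log2 values, old control minus young control (x axis), of the 15 member probe sets (y axis) with the deposited ratios and 4 other scalings of the arrays, 1 symbol for each. The Gclc, Gclm, Txnrd1 and Sod2 probe sets and Sod1 on 1435304_at stay below 0 throughout, and Hmox1 stays above 0. Nqo1, Gsta, Cat and Gpx1 change sign with the poly-A controls at 0, and Sod1 on 1451124_at with array medians at 0.

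The rest of the pathway was read through 8 lists with 76 genes, of which 68 had a probe set of their own and 62 had an age difference in the deposited ratios. By age, 7 of 104 probe sets reached 2-fold on the higher side and 7 on the lower side (13.5% together, next to 18.3% of all). This split moved to 1 higher and 21 lower with the hybridization controls at 0, and to 1 and 43 with the poly-A controls. With the signal table and equal medians it was 9 higher and 18 lower. The median was -0.09, next to -0.11 for all probe sets. By diet, none of 103 was 2-fold higher and 3 were lower (2.91%, next to 1.52%). The split was 3 and 3 after quantile normalization, 1 and 2 with the hybridization controls, 3 and 2 with the poly-A controls, 4 and 4 in the signal table and 3 and 5 there with equal medians. In old Chlorella against young control 5 were higher and 6 lower (10.7%, next to 15.2%), a split of 8 and 6 with array medians at 0 and of 2 and 6 after quantile normalization. It was 1 and 14 with the hybridization controls, 1 and 27 with the poly-A controls, and 6 and 26 in the signal table with equal medians. Genes named below had a probe set past 2-fold in at least 1 comparison.

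Among the regulators, 1 probe set was 2-fold higher and 2 were 2-fold lower by age out of 13, a share of 23.1% next to 18.3% of all probe sets. Keap1, the inhibitor of NRF2, had log2 signals of 9.29 (young control), 7.59 (old control) and 8.53 (old Chlorella) on 1450747_at. Old control was the lowest array, with -1.69 by age and 0.94 by diet. On 1450746_at the age difference was -0.52 and the diet difference 0.087. For Nfe2l2 itself the probe sets differed: 1457117_at gave 6.97, 9.08 and 8.91 (2.11 by age), and 1416543_at gave 11.54, 11.90 and 11.77 (0.36). The latter was below 0 with either set of bacterial controls at 0, down to -0.39. Sqstm1, the autophagy adaptor p62 that binds KEAP1, had 13.49, 12.39 and 12.74 on 1450957_a_at, -1.10 by age and 0.34 by diet. Its other probe set gave 0.39 by age.

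In glutathione synthesis and recycling, 10 of 13 probe sets, for 5 genes, were below 0 by age, next to 55.8% of all. The median was -0.32, next to -0.11 for all, and 2 were 2-fold lower (15.4%, next to 8.8% of all). Gsr, the reductase that restores glutathione, had log2 signals of 10.84, 9.72 and 9.88 on 1421816_at, or -1.11 by age. Its second probe set, 1421817_at, gave -0.92 by age and 0.60 by diet. Glo1, the glyoxalase that removes methylglyoxal with glutathione, was -1.11 by age on 1436070_at but only -0.14, -0.18 and -0.43 on its other probe sets. In a separate list, thioredoxin and peroxiredoxin, 2 of 18 probe sets were 2-fold higher and 2 were 2-fold lower by age. Together this was 22.2%, next to 18.3% of all, and the list's median was -0.096. Its Txnrd2, the mitochondrial thioredoxin reductase, disagreed between probe sets: -1.09 and -1.05 on 1449097_at and 1451936_a_at, -0.13 on 1429972_s_at and 1.26 on 1429971_at. Prdx2, a cytosolic peroxiredoxin that thioredoxin reduces, had 13.03, 14.28 and 14.19 on 1418506_a_at, or 1.25 by age. On its weak probe set 1430979_a_at, the diet difference was -1.62, against -0.10 on 1418506_a_at.

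The conjugation and detoxification enzymes did not share a direction by age. Of 25 glutathione transferase probe sets, 1 was 2-fold higher and none 2-fold lower, or 4.0% next to 18.3% of all. That one was Mgst3, a microsomal member, with log2 signals of 11.23, 12.49 and 12.46 (1.26 by age). Akr7a5, an aldehyde reductase, was the lowest of its list at -1.25 by age (12.57, 11.31 and 11.34 on 1417294_at), and -0.77 on 1438315_x_at. Nqo2, a relative of Nqo1, was 1.18 higher on 1449983_a_at, but 0.53 and 0.17 on its other probe sets. Cbr3, a carbonyl reductase, had 6.91, 7.26 and 8.09, so old Chlorella exceeded young control by 1.17.

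Gpx4, the glutathione peroxidase that reduces lipid hydroperoxides, was higher in both old livers on both probe sets. The log2 signals on 1451695_a_at were 13.77, 15.01 and 14.95, and on 1456193_x_at 13.82, 14.99 and 14.82. The age differences were 1.24 and 1.17, above 0 under the 4 other scalings, with 0.42 the lowest. In their class, of 14 and over, 83.1% and 80.8% of probe sets lay lower. The median age difference of that class was 0.584, and 25.3% of it was 2-fold higher, so rises of this size were common there. In old Chlorella the difference from young control was 1.18 and 0.99. By diet the 6 probe sets of the list of other superoxide and peroxide enzymes lay between -0.36 and -0.06, none past 2-fold, with a median of -0.22. With the poly-A controls at 0 the median was 0.069, and both Gpx4 probe sets, Selenop and Gpx7 were above 0. One Gpx4 probe set and Selenop were also above 0 with the hybridization controls at 0. The Gpx4 and Selenop probe sets lay in the class of 14 and over, whose median diet difference was -0.076.

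The NADPH-supplying enzymes were the list furthest below 0 by diet, with 10 of 11 probe sets below 0, next to 49.4% of all. The median was -0.38, and 2 were past 2-fold (18.2%, next to 1.52% of all). The median was -0.66 after quantile normalization, -0.21 with the hybridization controls at 0 and -0.09 with the poly-A controls at 0. The 2 probe sets past 2-fold were for Me1, malic enzyme, which makes cytosolic NADPH from malate. Its log2 signals were 11.14, 11.19 and 9.80 on 1416632_at and 13.93, 13.46 and 12.30 on 1430307_a_at. Old Chlorella was the lowest array on both, at -1.38 and -1.16 from old control. The range over 4 other scalings was -1.94 to -1.09 on the first and -1.67 to -0.87 on the second. Pgd, a dehydrogenase of the pentose phosphate pathway, had diet differences from -0.60 to -0.14 on its 4 probe sets in the deposited ratios. On 1437380_x_at the difference was above 0 with either set of bacterial controls at 0 (up to 0.15), and on 1438627_x_at with the poly-A controls (0.024). Tkt, the transketolase of that pathway, had 11.82, 11.05 and 10.53 on 1451015_at, or -1.29 between old Chlorella and young control. In that comparison 5 of the 11 probe sets were 2-fold lower, next to 6.87% of all, and they were for Me1, Pgd or Tkt.

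**Figure D4:**
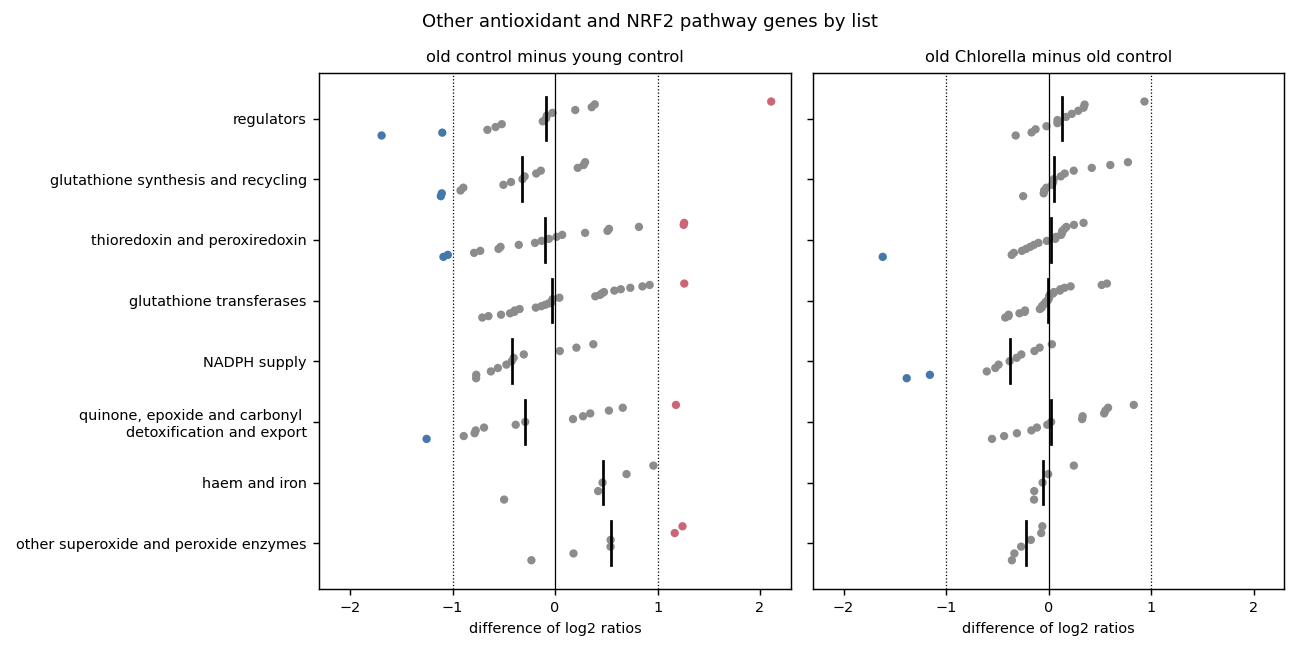
Difference of log2 ratios (x axis) of the probe sets of 8 lists of other antioxidant and NRF2 pathway genes (y axis), by age (left) and by diet (right), 1 point for each probe set; red is at least 2-fold higher, blue at least 2-fold lower, the black bar is the list's median. By diet the NADPH supply list has its median at -0.38 and both Me1 probe sets past 2-fold, and the regulators hold the lowest (Keap1) and highest (Nfe2l2) values by age.

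The liver label was checked against hepatocyte markers, and 6 of 7 listed genes had probe sets. Their summed signal was 495559 in young control, 644375 in old control and 610439 in old Chlorella. None of these probe sets was at log2 signal 0, but this held for all 10 marker lists and does not set hepatocytes apart. The sum is carried by Apoa1, Ttr, Alb, Cyp2e1 and Cps1, which had the strongest signals. Tat, on 1451557_at, was the only one of the 12 probe sets below 0 by age, at -0.62. Its diet difference was -0.89, and old Chlorella minus young control gave -1.51, the only value of the list past 2-fold. Markers of other cells differed by age too. The Kupffer cell and macrophage list (8 of 8 genes, 11 probe sets) summed to 22351, 43958 and 42672. The median age difference was 0.80 over its 9 probe sets with a deposited one, of which 1 was 2-fold higher. Both Marco probe sets were weak and had no ratio. Their log2 signals were 6.27, 4.60 and 3.34 on 1449498_at, falling, and 3.64, 4.07 and 4.77 on 1458297_s_at, rising. The B cell list (3 of 4 genes) summed to 443, 2219 and 1678, and the neutrophil list (3 of 3 genes) to 890, 6489 and 10295. All 3 measured probe sets of each of the last 2 lists were past 2-fold by age, on the higher side, next to 9.55% of all probe sets. For B cells these were for Cd79b and Ms4a1 only, since Cd79a had no deposited age difference. Macrophages express Hmox1, and blood cells hold other members too. The part of these cells in the age differences was not tested, and more cells of a type and more RNA for each cell cannot be told apart in whole liver.

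Of the other marker lists, T and NK cells summed to 644, 764 and 755 and stellate cells to 3409, 3581 and 3534. Bile duct gave 411, 383 and 432, red cell precursors 609, 946 and 606, and adipocytes 91.2, 54.3 and 54.8. Liver endothelium summed to 8838, 14749 and 13571, a sum carried by Clec4g on 1427428_at (1.15 by age). Its other markers did not share that direction: Kdr was at -1.18, Stab2 at -0.75 and Lyve1 at -0.81 and 0.02, and the list's median was -0.75. The ends of control transcripts, a sign of RNA quality, also differed: the age difference at the 5' end minus that at the 3' end was -0.38 for Actb, -0.22 for Gapdh and -1.79 for Pcx. Between the old arrays the same values were -0.02, 0.046 and -0.08. The part of this in the age differences of Gclc, Sod2 and the other members was not tested.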

How the data were processed

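Total RNA of 6 pooled livers a group was labelled and hybridized to 3 one-colour Affymetrix arrays, per the labels' protocols. MAS5, Affymetrix's signal summary, is named in the submitters' processing notes, without version or scaling. The authors deposited log2 ratios of each array over the median of all samples, per the file headers, for part of the probe sets, by a rule not given. The values are not those of a median of these 3 arrays alone. They also deposited a table of log2 values for 45101 probe sets, 64 of them controls. From the values, these are log2 signals: the mean of the signals, leaving out 2% at each end, was 500.0 on each array. One ratio column is headed only Old and was read as old control, since the column headed Chlorella takes the only other title with this word. No column was left unused.

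Differences between arrays were computed with Python 3.11.15 and pandas 2.3.3, tested on simulated data, and counted at 2-fold. With 1 array a group there was no test; precision is limited by the number of arrays. Probe sets were named from the platform annotation, with symbols updated through RefSeq (34958 with 1 gene symbol, 932 with several, 9211 with none). The members and lists were chosen with earlier results of these data known, and the signal classes after the signals were seen. Members are all named, and other pathway genes where a deposited difference reached 2-fold in any comparison. Alternatives were 4 other scalings, the signal table as deposited, with equal medians or with a floor, a filter on low signals, a 1.5-fold threshold and 1 value a gene.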

Additional observations from a re-analysis of the deposited data

Results flagged for a closer look

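Of the 21 member and listed probe sets without a deposited diet difference, 4 had a log2 signal that exceeded old control by 2-fold or more in old Chlorella, in data that the comparisons do not use. Among all 28513 probe sets without a deposited diet difference, 24.7% were that much higher and 17.7% that much lower, so differences of this size were common there. The 1 of 21 that was as much lower was Srxn1, sulfiredoxin (1419942_at, with log2 signals of 6.59, 6.16 and 4.15, or -2.01). Maff, a small MAF partner of NRF2, was 1.64 higher (1418936_at, with log2 signals of 5.49, 5.54 and 7.18 on the young control, old control and old Chlorella arrays). Slc7a11, the cystine transporter that feeds glutathione synthesis, was 1.09 higher (1420413_at, with 2.12, 4.37 and 5.46). Gstm7, a mu-class glutathione transferase, was 2.25 higher (1425946_at, with 7.16, 5.44 and 7.69), and its ratio was empty for old control only. Prdx4, a peroxiredoxin of the endoplasmic reticulum, was 1.56 higher (1431269_at, with 5.54, 4.28 and 5.83). The old control signals of Slc7a11 and Prdx4 and the old Chlorella signal of Srxn1 lay under 4.43, the lowest 25% of signals. Counted from that floor, the differences were 1.03, 1.40 and -1.73. Where these genes had other probe sets, those gave smaller diet differences. Gstm7 was at -0.39 on 1419072_at, and Prdx4 at -0.34, -0.22 and 0.12. Srxn1 was at 0.065, -0.18 and -0.27, and Slc7a11 at 0.01 on 1443536_at, with signals under that floor. None of these differences has a replicate.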

How the results depend on the processing

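No paired analysis was possible because each group is 1 array. For old control minus young control, 3 members were 2-fold different in the deposited ratios. There were 5 with the hybridization controls at 0, 6 with the poly-A controls at 0, 6 at 1.5-fold and 1 with 1 value a gene (Sod2 then averages its 3 probe sets), and within 1.5 times of the main count in the other 6 settings. For old Chlorella minus old control, the 1 member became 0 with the signal table at equal medians and 0 with 1 value a gene. For old Chlorella minus young control, the count of 0 became 2 and 4 with the hybridization and poly-A controls, 5 with the signal table at equal medians and 7 at 1.5-fold. The pathway lists had 14 by age, and 6 after quantile normalization, 22 and 44 with the hybridization and poly-A controls, 24 with the signal table, 27 with it at equal medians and 36 at 1.5-fold. By diet they had 3, and 6 after quantile normalization, 5 with the poly-A controls, and 8 with the signal table, with it at equal medians and at 1.5-fold. Between old Chlorella and young control they had 11, and 28 with the poly-A controls, 20 with the signal table, 32 with it at equal medians and 39 at 1.5-fold. The signal table adds probe sets without a ratio, and a lower threshold counts more by construction. A shift of an array moves every difference alike. No member past 2-fold changed sign in any of 8 settings. Others did, with values closer to 0: 7 of 15 members by age, 9 by diet and 4 between old Chlorella and young control. The signal table as deposited, with or without a floor, and the filter on low signals left the members' values as they were within 0.001. Leaving out an array would leave no comparison.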

Other observations

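Over all probe sets, the direction of the age difference depended on signal class. In the class of 14 and over, 25.3% of 573 probe sets exceeded young control by 2-fold or more in old control, and 0.349% were lower by as much. In the class from 8 to 10, 6.17% of 6581 were higher and 10.3% lower. By diet the class medians fell with signal, from 0.04 under 8 to -0.076 at 14 and over. In the class from 12 to 14, 4 of 1488 were 2-fold higher and 15 lower. In the class of 14 and over, none of 573 was 2-fold higher and 1 was lower.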
